A study of Saccharomyces cerevisiae with 11 samples.

Results

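The pentose phosphate pathway of Saccharomyces cerevisiae was followed through 10 of its genes in a rim15 mutant. The genes were ZWF1 (YNL241C), SOL3 (YHR163W), SOL4 (YGR248W), GND1 (YHR183W), GND2 (YGR256W), RKI1 (YOR095C), TKL1 (YPR074C), TKL2 (YBR117C), TAL1 (YLR354C) and NQM1 (YGR043C). They are 10 of 5577 genes tested on 11 Affymetrix yeast arrays, and each was read from the brightest probe set annotated to it alone. The set holds the major and minor isoenzymes of the pathway, and it was chosen by pathway membership together with the measured late increase of TKL2 over the retentostat days. TKL2 is therefore described without a test, and counts of called genes cover the other 9.

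All samples came from the rim15 deletion mutant IMK313, made in the prototrophic laboratory strain CEN.PK113-7D and grown without oxygen on limiting glucose. The Rim15 kinase receives signals from several nutrient pathways and helps cells to enter the resting state. Medium with 50 g/l glucose was supplied at a dilution rate of 0.025 per h, at pH 5.0 and 30 °C, in 1.4 l. In the chemostat group (3 independent cultures) cells left the vessel with the effluent. In the retentostat groups the effluent was filtered and the cells stayed, so that ever less glucose reached each cell; 2 cultures were sampled on days 2, 9, 16 and 20. The series asks how the deletion affects yeast under severe calorie restriction. Every group carries the deletion and the unmodified strain was not analysed here, so the comparisons describe the mutant over time.

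The pathway runs beside glycolysis and starts from glucose 6-phosphate. Its oxidative branch makes NADPH, which yeast uses for biosynthesis and for keeping its antioxidant systems reduced. Its non-oxidative branch moves carbon units between sugar phosphates, supplies ribose for nucleotides and erythrose 4-phosphate for aromatic amino acids, and returns the rest to glycolysis. Several steps have a major enzyme and a close relative that contributes little during growth on glucose.

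The RIM15 probe set gave signals from 0.4 to 13.9, and only 1 of the 11 arrays exceeded the floor of 12 set for all signals; whether the probe set falls inside the deletion is not known here. On 3 arrays, those of culture 2 on days 9, 16 and 20, the control probe sets for actin (ACT1) had a 3' to 5' signal ratio of 27.0, 217 and 31.8. On the other 8 arrays this ratio was 0.966 to 2.03, and the 3 are called the high-ratio arrays hereafter. A fit without them has 1 array on each of the 3 late days and assumes that it varies like the chemostat and day 2 arrays. The median gene, as deposited, stood 0.11, 0.25, 0.35 and 0.36 above its chemostat level (log2) on days 2, 9, 16 and 20. With arrays scaled to a common median these were -0.01, 0.02, -0.01 and -0.06. Signals are in the arbitrary units of the deposited values, and signals of different genes cannot be set against each other. In these bulk RNA samples, fewer cells of a kind and less RNA per cell cannot be told apart. The number of arrays limits the precision of every value.

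TKL2 encodes the minor transketolase, an enzyme that transfers a carbon pair between sugar phosphates. Its signal was 13.5, 12.3 and 12.3 in the 3 chemostat cultures, just above the floor. In the retentostat, cultures 1 and 2 gave 18.5 and 34.2 on day 2, 51.3 and 80.1 on day 9, 95.1 and 264.5 on day 16, and 300.6 and 350.1 on day 20. On this brightest probe set the signal was higher at each later sampling point in both cultures, and the arrays of neighbouring sampling points did not overlap. The group means were 12.7 ± 0.693 (SD, n = 3), 26.4 ± 11.1, 65.7 ± 20.4, 180 ± 120 and 325 ± 35.0 (SD, n = 2 each).

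On the log2 scale TKL2 differed from the chemostat by 0.99 on day 2 and by 2.34, 3.64 and 4.68 on days 9, 16 and 20, each with a standard error of 0.43. The day 20 difference was the largest upward difference among the 5577 genes, as was the difference of 3.69 ± 0.47 between day 20 and day 2. On day 9 it ranked 21st from the top, and on day 16 it ranked 6th. These ranks describe the gene for which the set was chosen. Culture 1, whose arrays all had a low ACT1 ratio, gave 0.54, 2.02, 2.91 and 4.57 on the 4 days, and culture 2 gave 1.43, 2.66, 4.38 and 4.79. The day 16 difference was thus 2.91 without the culture 2 array of that day. Because the chemostat signal lay near the floor, the size depends on the floor: with a floor of 32 the day 20 difference was 3.34. The rank depends on it too: the day 20 difference then ranked 6th from the top, and 2nd with log2(signal + 16), and the day 9 difference 572nd and 101st. The difference between day 20 and day 2 ranked 1st in both of these fits.

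Besides the brightest probe set, 2 dimmer ones are annotated to TKL2 alone. The middle one in brightness gave 11.5, 15.8 and 9.8 in the chemostat and 122.8 and 190.8 on day 20. The dimmest gave 8.1, 7.4 and 4.5 in the chemostat, all under the floor, and 183.6 and 135.3 on day 20, so that it was at least 13.1-fold higher there. All 3 were thus far higher on day 20 than in the chemostat. The separation of every neighbouring pair of sampling points did not hold on the dimmer ones. On the middle probe set day 2 (12 and 26.1) overlapped the chemostat and day 16 overlapped day 20, and on the dimmest day 16 overlapped day 9 (38.5 and 35). The probe sets disagreed on the order of the cultures on day 16: culture 2 lay above culture 1 on the middle probe set (170.8 against 49.1) and on the brightest probe set, and below it on the dimmest (34.6 against 79.1). The culture 2 array of that day had the highest ACT1 ratio, 217, and the part of this ratio in the disagreement was not tested.

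**Figure D1:**
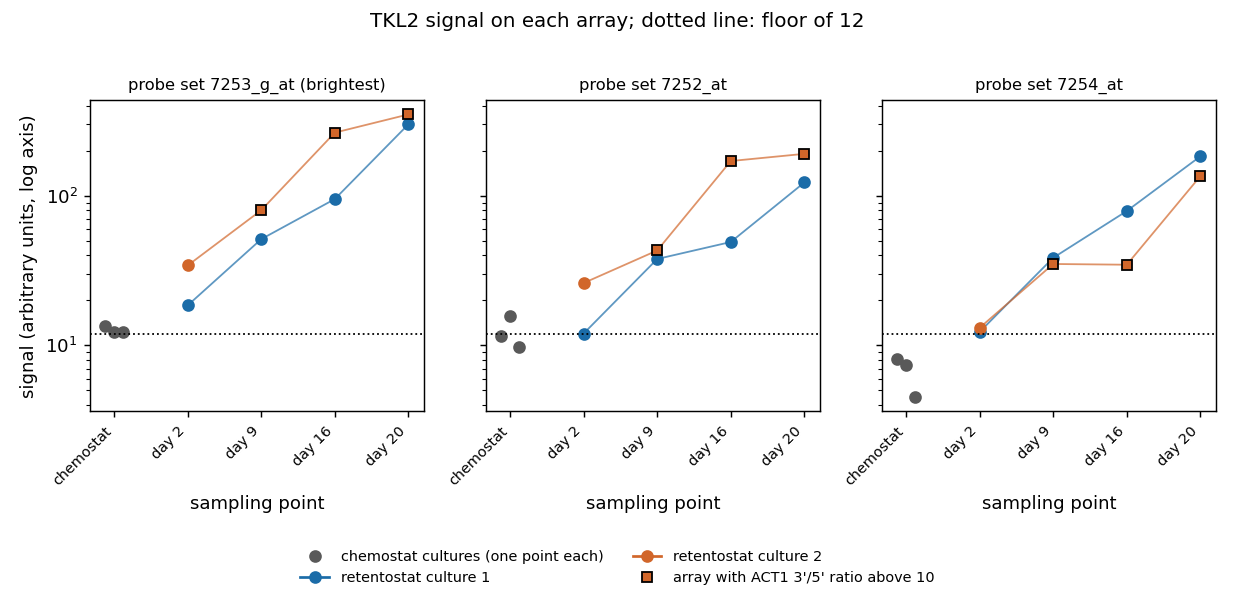
TKL2 signal on each array (log axis, arbitrary units) by sampling point for the 3 probe sets annotated to TKL2 alone. Grey points are the 3 chemostat cultures, blue and orange lines the 2 retentostat cultures, squares the arrays with an ACT1 3'/5' ratio above 10, and the dotted line the floor of 12. On the brightest probe set the signal goes from 12.3 to 13.5 in the chemostat to 300.6 and 350.1 on day 20.

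TKL1, the major transketolase gene, went the other way and reached its lowest level on day 9. Its signal was 1911, 1742.1 and 1593.7 in the chemostat and, for cultures 1 and 2, 1188.6 and 1543 on day 2, 591.8 and 524.6 on day 9, 926.5 and 609.8 on day 16, and 1219.1 and 1112 on day 20. All 8 retentostat arrays lay under all 3 chemostat arrays. In order of their means, day 9 was lowest, followed by days 16, 20 and 2 and the chemostat, and only the arrays of days 20 and 2 overlapped between neighbours. TKL1 fell by 1.65 ± 0.25 (SE, limma adjusted p = 0.00429) on day 9 and by 1.21 ± 0.25 (adjusted p = 0.0110) on day 16, on the log2 scale. On day 20 the difference was -0.58 ± 0.25 and did not pass (adjusted p = 0.144), except in a fit of the compared groups alone (adjusted p = 0.0351). The day 16 call ended without the culture 2 array of that day (adjusted p = 0.0682) and without the 3 high-ratio arrays (adjusted p = 0.0604), while the day 9 call held in each of these fits and with any array left out. Day 20 was not compared with day 9 by a test.

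Within an array, the log2 ratio of TKL2 to TKL1 shows how unequally the transketolase genes changed. The ratio was -7.15, -7.15 and -7.02 in the chemostat and higher on every retentostat array. It reached -3.53 and -2.71 on day 9, -3.28 and -1.21 on day 16, and -2.02 and -1.67 on day 20. Day 20 lay 5.26 above the chemostat mean. The ratios describe unequal change and do not say which transcript was more abundant.

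NQM1, the gene of the minor transaldolase, was higher in the middle of the retentostat. Its signal was 91.8, 136.7 and 77.6 in the chemostat, 121.9 and 141.7 on day 2, 287.9 and 263.9 on day 9, 207.6 and 360.2 on day 16, and 160.7 and 246.9 on day 20. The arrays of days 9, 16 and 20 all lay above the chemostat arrays, while day 2 overlapped them. NQM1 rose by 1.48 ± 0.34 (SE, limma adjusted p = 0.0195) on day 9 and 1.46 ± 0.34 (adjusted p = 0.0166) on day 16, and its difference of 1.01 ± 0.34 on day 20 missed the threshold (adjusted p = 0.0759). Neither call was firm. The day 9 call ended without chemostat culture 1 or 3 or either day 9 array (adjusted p = 0.0652, 0.0755, 0.0660 and 0.0644) and the day 16 call without chemostat culture 1 or 3 or the culture 2 array of day 16 (adjusted p = 0.0562, 0.0616 and 0.115). Both ended without the 3 high-ratio arrays (adjusted p = 0.0527 and 0.112), and the day 16 call under quantile (adjusted p = 0.0568) and median scaling (adjusted p = 0.0516) and in a fit of the compared groups alone (adjusted p = 0.0576). The day 20 difference passed without either day 16 array (adjusted p = 0.0478 in both fits).

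TAL1 encodes the major transaldolase, which returns carbon from sedoheptulose 7-phosphate to fructose 6-phosphate. It gave 473.8, 695.3 and 571.5 in the chemostat, 546.9 and 437.6 on day 2, 364.9 and 648.9 on day 9, 438.5 and 589.1 on day 16, and 433.4 and 410.8 on day 20. The arrays of days 2, 9 and 16 overlapped the chemostat, and those of day 20 lay just under it. No TAL1 difference passed the test, and the day 20 difference was -0.44 ± 0.30 (limma adjusted p = 0.338). The log2 ratio of NQM1 to TAL1 was -2.37, -2.35 and -2.88 in the chemostat. It lay above all of these on every retentostat array and reached -0.34 and -1.30 on day 9, -1.08 and -0.71 on day 16 and -1.43 and -0.73 on day 20.

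RKI1 encodes ribose-5-phosphate ketol-isomerase, which links the oxidative branch to ribose. Its probe set was dim, with 47.3, 47.8 and 73.4 in the chemostat and, for cultures 1 and 2, 12.5 and 38.4 on day 2, 10.1 and 15.9 on day 9, 20.7 and 42 on day 16, and 24.5 and 23.7 on day 20. Every retentostat array lay under every chemostat array, and 1 of them, culture 1 on day 9, lay under the floor. RKI1 fell by 1.99 ± 0.47 (SE, limma adjusted p = 0.0227) on day 9. The differences of days 2, 16 and 20, -1.33, -0.90 and -1.19 with the same error, did not pass (adjusted p = 0.434, 0.195 and 0.123). The day 20 difference did pass under median scaling (adjusted p = 0.0484) and in a fit of the compared groups alone (adjusted p = 0.0205). With a floor of 32 the day 9 difference was -0.78 and did not pass (adjusted p = 0.0531). The call also ended without the 3 high-ratio arrays (adjusted p = 0.0954). Leaving out any single chemostat array (adjusted p = 0.0560, 0.0541 and 0.0850 for cultures 1, 2 and 3) or either day 9 array (adjusted p = 0.0891 and 0.0644 for cultures 1 and 2) ended it too.

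**Figure D2:**
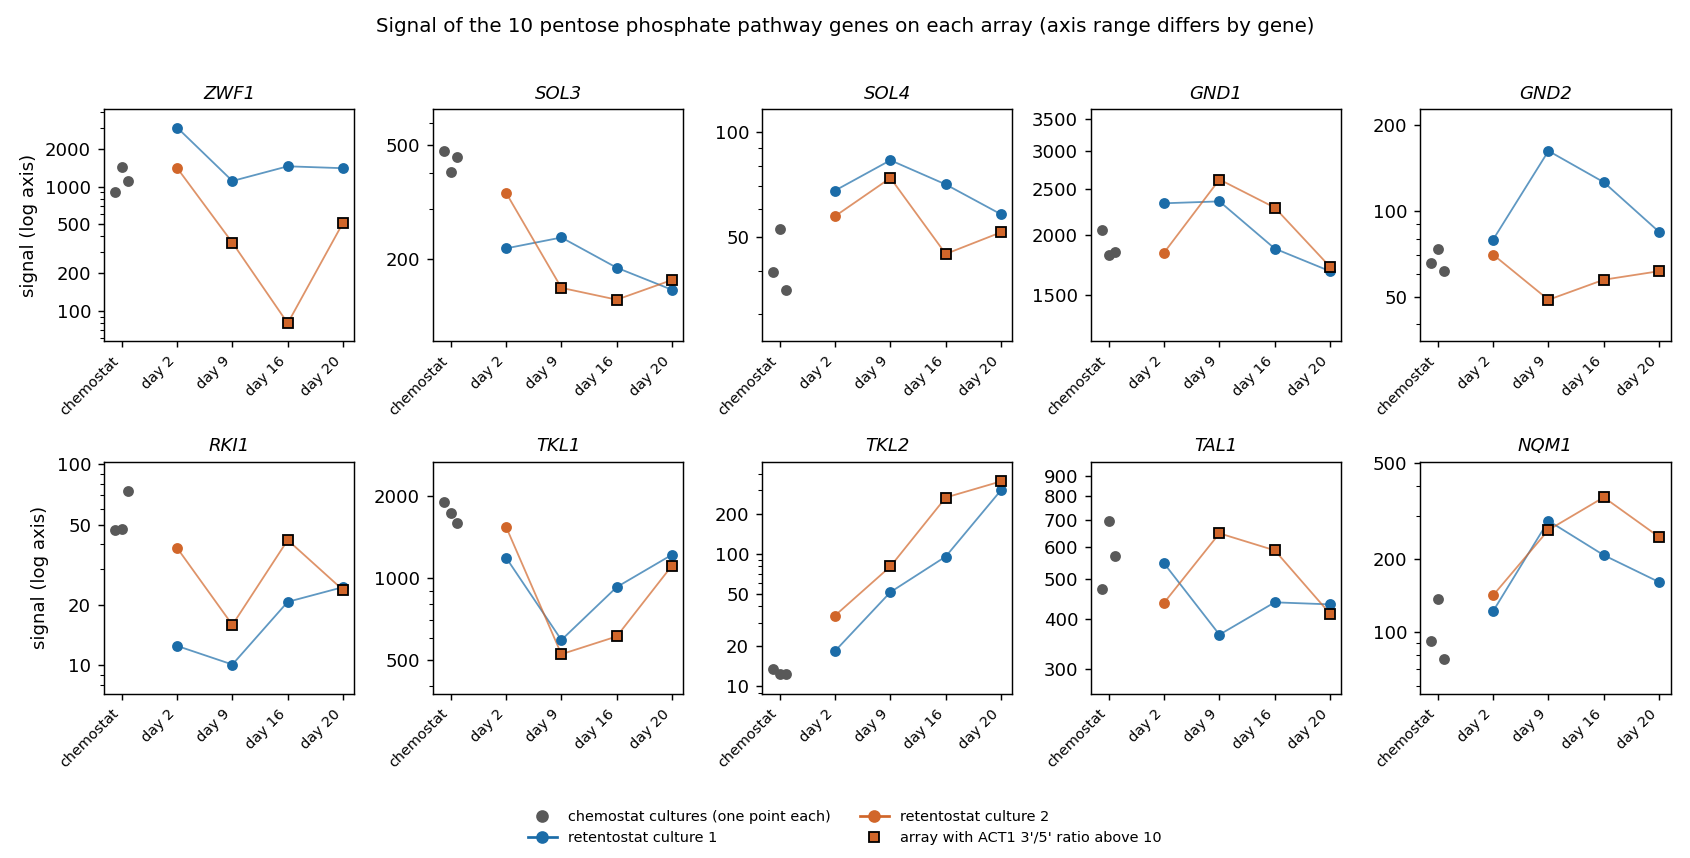
Signal of the 10 genes on each array (log axis, arbitrary units, range set per gene) by sampling point. Grey points are the 3 chemostat cultures, lines the 2 retentostat cultures, and squares the arrays with an ACT1 3'/5' ratio above 10. TKL2 ends at 300.6 and 350.1, SOL3, RKI1 and TKL1 lie under the chemostat on all 8 retentostat arrays, and ZWF1 and GND2 part between the cultures on days 9 and 16.

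In the oxidative branch, SOL3, the main gene for 6-phosphogluconolactonase, which opens the lactone made in the opening step, was lower in the retentostat throughout. Its signal was 477.1, 402.3 and 455.7 in the chemostat, 217.4 and 340.3 on day 2, 237.4 and 158.1 on day 9, 186 and 143.7 on day 16, and 155.6 and 168.5 on day 20. No retentostat array overlapped the chemostat, while the 4 retentostat days overlapped their neighbours in the order of means. The day 2 difference of -0.71 ± 0.28 did not pass (limma adjusted p = 0.498). SOL3 fell by 1.20 ± 0.28 (SE, limma adjusted p = 0.0214) on day 9, by 1.44 ± 0.28 (adjusted p = 0.00867) on day 16 and by 1.45 ± 0.28 (adjusted p = 0.0117) on day 20. Of the 9 genes SOL3 alone passed on day 20. Without the 3 high-ratio arrays the differences were -0.90, -1.25 and -1.51, and none passed (adjusted p = 0.104, 0.0589 and 0.0596). Of single arrays, leaving out chemostat culture 1 or 3 or the culture 2 array of day 9 ended the day 9 call (adjusted p = 0.0722, 0.0743 and 0.108). The culture 2 array of day 16 ended that of day 16 (adjusted p = 0.0638), and either day 20 array ended that of day 20 (adjusted p = 0.0895 and 0.0985 without cultures 1 and 2).

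SOL4 encodes a second 6-phosphogluconolactonase. Its signal was 39.6, 52.7 and 35.1 in the chemostat, 68 and 57.4 on day 2, 83.1 and 73.9 on day 9, 70.8 and 44.7 on day 16, and 58.1 and 51.6 on day 20. Days 2 and 9 lay above the chemostat, and days 16 and 20 overlapped it. The day 9 difference of 0.91 ± 0.27 just missed the threshold (limma adjusted p = 0.0538). It passed with a floor of 32 (adjusted p = 0.0458), with culture as a random block (adjusted p = 0.0453) and without either day 16 array (adjusted p = 0.0289 in both fits). The log2 ratio of SOL4 to SOL3 was -3.59, -2.93 and -3.70 in the chemostat and lay above all of these on each retentostat array, from -2.57 on day 2 of culture 2 to -1.10 on day 9 of culture 2. Day 9 was 2.10 and day 20 was 1.84 above the chemostat mean.

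GND1 encodes the major 6-phosphogluconate dehydrogenase, which makes NADPH and ribulose 5-phosphate. It varied little, with 2054.5, 1819.7 and 1842.6 in the chemostat, 2330.6 and 1839.7 on day 2, 2351.8 and 2612.2 on day 9, 1875.1 and 2282.6 on day 16, and 1682.3 and 1717.7 on day 20. The day 9 arrays lay above the chemostat and the day 20 arrays under it, but no difference passed. The log2 difference was 0.38 ± 0.21 on day 9 (limma adjusted p = 0.266) and -0.16 ± 0.21 on day 20 (adjusted p = 0.635). The latter was 0.07 under quantile scaling.

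GND2, the gene of the minor 6-phosphogluconate dehydrogenase, parted between the cultures. It gave 65.7, 73.6 and 61.7 in the chemostat and 79.3 and 70.2 on day 2. On days 9, 16 and 20 culture 1 gave 162.6, 126.2 and 84.4, all above the chemostat, whereas culture 2 gave 48.7, 57.3 and 61.4, all under it. The mean differences of 0.41, 0.35 and 0.11 on days 9, 16 and 20, each ± 0.49 (SE), did not pass (limma adjusted p = 0.617, 0.635 and 0.906). The day 20 difference was -0.32 under quantile and -0.31 under median scaling, and the day 9 difference -0.46 without the culture 1 array of that day. In the fit without the 3 high-ratio arrays, all of culture 2, GND2 was higher by 1.28 on day 9 (adjusted p = 0.0274) and 0.92 on day 16 (adjusted p = 0.0423). The log2 ratio of GND2 to GND1 split in the same way, with -3.85 in culture 1 and -5.75 in culture 2 on day 9 against -4.97 to -4.63 in the chemostat.

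ZWF1 encodes glucose-6-phosphate dehydrogenase, which commits glucose 6-phosphate to the pathway and makes its opening NADPH. Its chemostat signals were 912.7, 1446.1 and 1114. Culture 1 gave 3000.7 on day 2 and then 1112.6, 1461.1 and 1410.2 on days 9, 16 and 20. Culture 2 gave 1418.4 on day 2 and then 354.2, 79.5 and 512.6. From day 9 on, the culture 1 arrays thus lay among or just above the chemostat arrays and the culture 2 arrays far under them. On the log2 scale, culture 1 differed from the chemostat mean by -0.03, 0.36 and 0.31 on days 9, 16 and 20, and culture 2 by -1.68, -3.84 and -1.15.

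The 3 low ZWF1 values came from the 3 high-ratio arrays. The ACT1 5' control probe set gave 197, 21.2 and 149.8 on days 9, 16 and 20 of culture 2, against 2549.8 to 4602.1 on the other 8 arrays. The lowest ZWF1 signal, 79.5, was on the array with the lowest ACT1 5' signal, 21.2. The part of this control signal in the ZWF1 values was not tested. No ZWF1 difference passed with all arrays (-0.86, -1.74 and -0.42 on days 9, 16 and 20, each ± 1.04 SE, limma adjusted p = 0.631, 0.250 and 0.811), and the day 16 and day 20 differences changed sign to 0.36 and 0.31 without the 3 arrays. A fit without the culture 1 array of day 16, which leaves only the array with a signal of 79.5, called ZWF1 lower on that day (adjusted p = 0.0121).

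**Figure D3:**
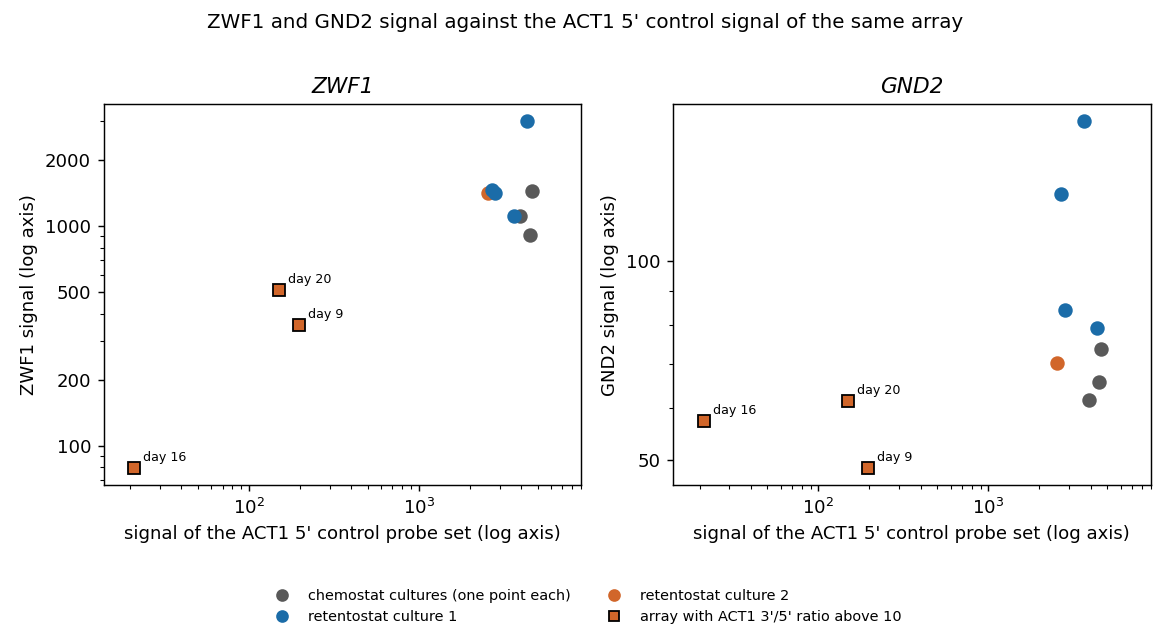
ZWF1 (left) and GND2 (right) signal against the signal of the ACT1 5' control probe set on the same array (log axes, arbitrary units). Colours give the chemostat and the 2 retentostat cultures, and the labelled squares are the 3 arrays with an ACT1 3'/5' ratio above 10. The square with the lowest ACT1 5' signal, 21.2, has the lowest ZWF1 signal, 79.5.

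Counted over the 9 genes other than TKL2, none passed on day 2 by limma, where 0.0179% of all genes did, all of them higher (0% lower); 2 of the 9 had an unadjusted p under 0.05, SOL3 and RKI1, both lower, against 8.57% of all genes. On day 9, 4 of 9 passed, against 15.1% of all genes. NQM1 was higher (11.4% of all genes were) and SOL3, RKI1 and TKL1 lower (3.68% of all genes were). On day 16, 3 of 9 passed, against 20.9% of all genes: NQM1 higher (16.6%) and SOL3 and TKL1 lower (4.32%). On day 20, SOL3 passed as lower (3.01% of all genes) and none as higher (10.5%), with 13.5% of all genes called in either direction. The median log2 difference of the 9 from the chemostat was 0.12, -0.24, -0.17 and -0.42 on days 2, 9, 16 and 20, against 0.11, 0.25, 0.35 and 0.36 over all genes. Between day 20 and day 2, none of the 9 passed by limma, against 0.592% of all genes. SOL3 alone had an unadjusted p under 0.05, against 13.6% of all genes, so 1 of 9 was near the background. Over all 5 sampling points, the moderated F test called SOL3, TKL1 and NQM1 (adjusted p = 0.0249, 0.0149 and 0.0463), and 11.4% of all genes. With a floor of 32 and under quantile and median scaling, NQM1 missed the threshold of the F test (adjusted p = 0.0655, 0.140 and 0.114). In each of these fits 2 of the 9 genes were called, and the share of all genes in their F tests was not computed. The F test call of NQM1 ended in 10 of the 11 fits with 1 array left out (adjusted p = 0.0626 to 0.166), that of SOL3 in 5 (0.0686 or more) and that of TKL1 in the 3 without a chemostat culture (0.0576 to 0.0681). The comparisons with the chemostat share its 3 cultures, so the days are not independent of each other.

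Many more genes showed arrays that did not overlap the chemostat than passed the test. On day 2 this held for 4 of the 9 (34.4% of all genes), 1 of them higher (23.9%) and 3 lower (10.5%). On day 9 it held for 6 (46.9%), 3 higher (33.2%) and 3 lower (13.7%), and on day 16 for 4 (53.0%), 1 higher (40.6%) and 3 lower (12.3%). On day 20 it held for 6 (64.3%), 1 higher (49.8%) and 5 lower (14.5%). Between day 20 and day 2, 5 of the 9 did not overlap (54.9%), 1 higher (42.1%) and 4 lower (12.7%). SOL3, RKI1 and TKL1 lay under the chemostat on every retentostat array, and the share of all genes that did so was not computed.

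Counts within the set moved with the arrays used. Without the 3 high-ratio arrays, 2 and 1 of the 9 passed on days 9 and 16, against 15.8% and 12.7% of all genes in that fit, so these counts were near the background. SOL3 missed the threshold on day 20 (limma adjusted p = 0.0596), and SOL3, TKL1 and NQM1 missed it in the F test (adjusted p = 0.0976, 0.0751 and 0.145). The 2 genes of day 9 were TKL1 as lower and GND2 as higher, and the gene of day 16 was GND2.

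**Figure D4:**
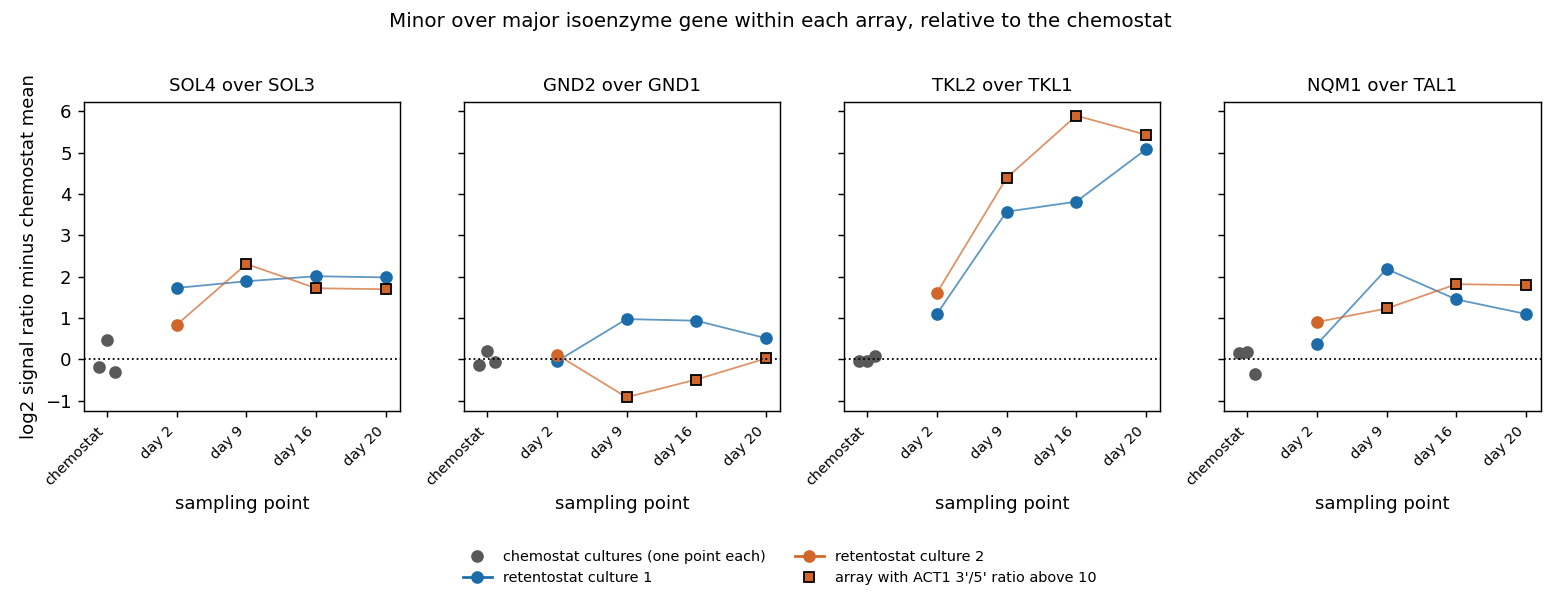
Log2 ratio of the minor to the major isoenzyme gene within each array, minus the chemostat mean of that ratio, by sampling point. Grey points are the 3 chemostat cultures, lines the 2 retentostat cultures, and squares the arrays with an ACT1 3'/5' ratio above 10. SOL4 over SOL3, TKL2 over TKL1 and NQM1 over TAL1 lie above the chemostat points on every retentostat array, and GND2 over GND1 lies on both sides.

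The ratio of TKL2 to TKL1 holds the gene the set was chosen for and is given among the isoenzyme pairs as a description only. SOL4 over SOL3 and NQM1 over TAL1 were higher on every retentostat array than in the chemostat, and GND2 over GND1 was not. These arrays come from 2 retentostat cultures, and the share of all gene pairs separated in this way was not computed. Averaged over days 9, 16 and 20, the log2 ratio lay 4.70 above the chemostat for TKL2 over TKL1, 1.94 for SOL4 over SOL3, 1.60 for NQM1 over TAL1 and 0.18 for GND2 over GND1. The last of these had no stable sign: it was -0.14 without the culture 1 array of day 9, -0.37 under quantile scaling and 0.81 without the 3 high-ratio arrays. With cultures as the unit, 3 against 2, an exact permutation test cannot give a two-sided p under 0.2, so these differences were not tested. The calls within the pairs differed by gene. SOL3 and TKL1 were called lower, NQM1 was called higher though not firmly, and no TAL1 difference passed. Of the SOL3 and TKL1 calls, only that of TKL1 on day 9 held with any array left out and without the 3 high-ratio arrays. SOL4 lay above the chemostat on days 2 and 9, and its day 9 difference of 0.91 ± 0.27 (SE) just missed the threshold. That miss does not show that SOL4 stayed unchanged.

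In the RefSeq annotation of assembly R64, whose positions are used here only for neighbourhood, SOL4 and GND2 lie on chromosome VII with 7 protein-coding genes between them. SOL3 and GND1 lie on chromosome VIII with 20 between them. The coding lengths within a pair were alike, 2046 and 2043 bases for TKL2 and TKL1, 1002 and 1008 for NQM1 and TAL1, 768 and 750 for SOL4 and SOL3, and 1479 and 1470 for GND2 and GND1. NQM1 also lies on chromosome VII, and TKL2 on chromosome II.

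Across the 11 arrays, which come from 3 chemostat cultures and 2 retentostat cultures sampled repeatedly, the log2 signal of TKL2 ran most like those of 6 genes among the 5090 genes bright enough to be ranked, those whose mean reached 50 in any group. Pearson's r was 0.97 for UGA4 (YDL210W), a permease for gamma-aminobutyrate, and 0.97 for SNR128 (YNCJ0003C), a small nucleolar RNA. It was 0.96 each for ATP6 (Q0085), a mitochondrially encoded subunit of ATP synthase, SIR2 (YDL042C), a histone deacetylase, PRM7 (YDL039C), a pheromone-regulated protein, and SNR36 (YNCO0022C), another small nucleolar RNA. Over the 8 arrays of low ACT1 ratio these genes had r of 0.94 to 0.96 and ranked between 7th and 22nd. UGA4, SNR128, ATP6 and SNR36 had chemostat means of 25.2, 38.8, 37.0 and 25.9, under the limit of 50. They were ranked only because a retentostat mean reached 50. The limit thus let in dim genes that rise, as TKL2 does. Of the pathway genes, NQM1 was nearest (r = 0.75, rank 982) and SOL3 ran most nearly opposite (r = -0.88, rank 5029). GND2 and SOL4 had r of -0.01 and 0.23, and 0.51 and 0.52 over the 8 arrays. The nearest to NQM1 were SWA2, KCC4 and HSP78 (r = 0.98, 0.98 and 0.98), to SOL4 TIF35, HSP26 and STP1 (0.96, 0.95 and 0.95), and to GND2 ECT1, FEN2 and YPS5 (0.97, 0.94 and 0.93). Over the 8 arrays, SWA2, KCC4 and HSP78 ranked 6th, 8th and 3rd for NQM1. TIF35, HSP26 and STP1 ranked 20th, 6th and 38th for SOL4, and ECT1, FEN2 and YPS5 ranked 20th, 17th and 140th for GND2. The chemostat means of SWA2 and YPS5, 47.3 and 35.2, also lay under 50.

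The pathway's remaining enzymes were read from 3 genes. SHB17 (YKR043C), a sedoheptulose bisphosphatase that feeds ribose synthesis without making NADPH, gave 448.8, 456.9 and 608 in the chemostat and 377.7 and 252.1 on day 2. It then gave 208.5 and 123.2 on day 9, 204.5 and 136.7 on day 16, and 236.1 and 194.8 on day 20. All retentostat arrays lay under the chemostat. SHB17 fell by 1.64 ± 0.32 (SE, limma adjusted p = 0.0114) on day 9. It fell by 1.58 ± 0.32 (adjusted p = 0.0107) on day 16 and fell by 1.22 ± 0.32 (adjusted p = 0.0374) on day 20. None of the 3 calls held without the high-ratio arrays (adjusted p = 0.0621, 0.0638 and 0.105). RPE1 (YJL121C), ribulose-phosphate 3-epimerase, had its highest mean signal on day 20, 985 ± 73.3 (SD, n = 2) against 601 ± 99.5 (SD, n = 3) in the chemostat, a log2 difference of 0.72 ± 0.27 that did not pass (adjusted p = 0.0993). PGI1 (YBR196C), phosphoglucose isomerase at the junction with glycolysis, did not pass on any day, but parted between the cultures. Cultures 1 and 2 gave 5084.3 and 2641.3 on day 9, 4463.5 and 1324.2 on day 16, and 3717.8 and 3484 on day 20. The chemostat gave 4407.4, 4890.8 and 4304.6. The culture 2 arrays of these days were the high-ratio arrays, and the part of the ACT1 ratio in the PGI1 values was not tested. SOL1 and SOL2, relatives of SOL3 and SOL4 without a known part in the pathway, did not pass either, with day 20 differences of 0.57 ± 0.32 and 0.46 ± 0.29.

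Neighbouring lists were read in the same fit, in which 3.68%, 4.32% and 3.01% of all genes were lower on days 9, 16 and 20. The shares of all genes that were higher were 11.4%, 16.6% and 10.5%. Of 8 genes for other sources of NADPH and NADP, 1, 2 and 1 fell on days 9, 16 and 20, with none higher. ALD6 (YPL061W), the cytosolic acetaldehyde dehydrogenase that makes NADPH, was in each of these counts. Its signals were 3108.4, 2353.7 and 2901.8 in the chemostat, 723.5 and 974.2 on day 2, 311.2 and 400.3 on day 9, 314.7 and 563 on day 16, and 601.1 and 483.9 on day 20. All retentostat arrays lay under the chemostat, and ALD6 fell by 2.97 ± 0.30 (SE, limma adjusted p = 0.00110) on day 9 and fell by 2.36 ± 0.30 (adjusted p = 0.00270) on day 20. MAE1 (YKL029C), the mitochondrial malic enzyme, fell by 2.20 ± 0.61 on day 16 (adjusted p = 0.0330), a call that ended without the 3 high-ratio arrays (adjusted p = 0.0744), whereas those of ALD6 held (adjusted p = 0.0225, 0.0177 and 0.0288 on days 9, 16 and 20). The list's median was -0.48, -0.42 and -0.32 on days 9, 16 and 20. It was -0.70, -0.78 and -0.75 under median scaling and -0.16, -0.24 and -0.23 without the 3 high-ratio arrays.

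Among 14 genes that use NADPH in redox defence, 2 were higher and 2 lower on day 9, 2 and 2 on day 16, and 1 and 3 on day 20. Over all genes, 11.4% were higher and 3.68% lower on day 9. The shares were 16.6% and 4.32% on day 16, and 10.5% and 3.01% on day 20. The counts of higher genes were thus near the background. TRR2 (YHR106W), the mitochondrial thioredoxin reductase, was higher by 1.86 ± 0.33 on day 20 (limma adjusted p = 0.00799), and OYE3 (YPL171C), an NADPH oxidoreductase, by 1.33 ± 0.33 on day 9 (adjusted p = 0.0272). The peroxiredoxin genes AHP1 (YLR109W) and TSA1 (YML028W) fell by 1.64 ± 0.39 (adjusted p = 0.0262) and 1.05 ± 0.23 (adjusted p = 0.0186) on day 20, and thioredoxin TRX1 (YLR043C) by 0.84 ± 0.24 (adjusted p = 0.0485). Under quantile scaling the day 20 calls of TSA1 and TRX1 ended (adjusted p = 0.0914 and 0.204), and without the 3 high-ratio arrays those of TRR2, TSA1 and TRX1 did (adjusted p = 0.0996, 0.0623 and 0.0652). The day 9 call of OYE3 ended in both fits (adjusted p = 0.0649 and 0.190).

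Of 12 genes for aromatic amino acids, which draw on erythrose 4-phosphate, 1 was higher and 2 lower on day 9, 1 and 3 on day 16, and 1 and 1 on day 20. Over all genes, 11.4% were higher and 3.68% lower on day 9. The shares were 16.6% and 4.32% on day 16, and 10.5% and 3.01% on day 20. The counts of higher genes were thus near or under the background. ARO4 (YBR249C), which joins erythrose 4-phosphate to phosphoenolpyruvate, fell by 2.51 ± 0.29 (SE, limma adjusted p = 0.00146) on day 9 and 1.53 ± 0.29 (adjusted p = 0.0111) on day 20, and the latter call ended without the 3 high-ratio arrays (adjusted p = 0.103). TRP4 (YDR354W) was lower on days 9 and 16, TRP3 (YKL211C) on day 16, and TRP1 (YDR007W) higher on all 3 days, by 1.35 ± 0.27 on day 9 (adjusted p = 0.0124). Of 6 genes for ribose phosphate use, PRS2 (YER099C) was higher on day 16 by 0.91 ± 0.23 (limma adjusted p = 0.0231), and no other passed. That count was near the background of day 16. None of 3 measured genes for pentose entry passed. Of 5 regulators (STB5, YAP1, MSN2, MSN4 and GIS1), GIS1 (YDR096W), a transcription factor downstream of Rim15, was higher on day 9 by 1.10 ± 0.27 (adjusted p = 0.0240). Several of these calls ended without the 3 high-ratio arrays: TRP1 on days 9, 16 and 20 (adjusted p = 0.0881, 0.112 and 0.116), TRP3 and TRP4 on day 16 (adjusted p = 0.0932 and 0.0520), PRS2 (adjusted p = 0.0674) and GIS1 (adjusted p = 0.0749). Median scaling ended TRP1 on days 16 and 20 (adjusted p = 0.148 and 0.146), PRS2 (adjusted p = 0.146) and GIS1 (adjusted p = 0.0654).

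The list of 30 carbohydrate and stress genes of the kind that the transcription factors Msn2 and Msn4 activate holds no pathway member. In it, 15, 10 and 8 genes were higher on days 9, 16 and 20 and none lower, with medians of 1.02, 0.73 and 0.75 on the log2 scale; over all genes 11.4%, 16.6% and 10.5% were higher. The counts were 11, 7 and 6 under quantile and 8, 7 and 5 under median scaling, where the medians were 0.79, 0.37 and 0.33. Of all 5577 genes, 378, 442 and 245 were higher under quantile scaling and 326, 334 and 181 under median scaling. FMP16 (YDR070C), a mitochondrial protein, was the only gene of the list past the threshold on day 2, by 1.97 ± 0.23 (limma adjusted p = 0.0490). That call ended under quantile and median scaling, without the 3 high-ratio arrays and with the replicate block (adjusted p = 0.154, 0.101, 0.134 and 0.196). PGM2 (YMR105C), the major phosphoglucomutase, rose by 1.93 ± 0.31 (adjusted p = 0.00525) on day 9 and 1.63 ± 0.31 (adjusted p = 0.0111) on day 20. Without the 3 high-ratio arrays the list's median was 1.04, 0.83 and 0.74 on days 9, 16 and 20, against 0.17, 0.28 and 0.33 over all genes. Between day 20 and day 2 the list's median was -0.07, and -0.37 under median scaling. In that comparison, of the same cultures, 0 of the 30 passed by limma, against 0.592% of all genes. At an unadjusted p under 0.05 there were 5, against 13.6% of all genes. With culture as a random block 1 of the 30 passed, against 2.67% of all genes. The list was chosen with results of these data known and is not independent evidence.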

How the data were processed

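The deposited values are linear intensity signals per probe set, 1 array per sample, which the authors made with GCOS 1.2, per the submitters' processing notes; how background and scaling were set there is not stated. The arrays' trimmed means, without the lowest and highest probe sets, agreed within 0.0133%. The 9335 probe sets comprise 6504 with 1 annotated gene, 328 with several, 2443 without any, and 60 controls. Each gene was read from its probe set of highest average log2 signal (5656 genes, all 10 pathway genes matched), and 79 genes that never exceeded the floor were dropped. Signals under 12 were set to 12 before log2.

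Groups follow the labels. One mean per sampling point was fitted over all 11 arrays with limma 3.58.1 in R 4.3.3 (lmFit, eBayes; 6 residual and 3.52 prior degrees of freedom; checked on simulated data), two-sided, with Benjamini-Hochberg adjustment over 5577 genes and a threshold of 0.05. Standard errors of log2 differences are limma's moderated ones. The simulated arrays were drawn independently of each other, so that check does not cover repeated sampling of a culture. Retentostat arrays of a number carry the same culture code, so they are 1 culture sampled repeatedly, and the fit treats them as independent. Their deviations from the group means correlated across genes at 0.227 to 0.690 between days, and those of like-numbered chemostat and retentostat arrays, which are different cultures, at -0.209 to 0.288. Between days 9, 16 and 20, where culture 2 gave the high-ratio arrays, the correlations were 0.498 to 0.690. Pairs with day 2 gave 0.227 to 0.444. On the late days culture and ACT1 ratio cannot be told apart.

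The pathway genes, the neighbouring lists and the comparisons were chosen with earlier results of these data known. All 10 pathway genes are named, other genes if their list is the pathway's own or if they passed, and the genes most like TKL2 (6), GND2, NQM1 and SOL4 (3 each) by Pearson's r. Alternatives were other floors, scalings and filters, averaged probe sets, blocks, fewer arrays and, chosen after seeing the data, the dimmer TKL2 probe sets.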

Additional observations from a re-analysis of the deposited data

How the results depend on the processing

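TKL2 was above the chemostat in all alternatives run, which restates the rise for which the set was chosen, and the size depended on the floor. With a floor of 32, and on the dimmest probe set, all chemostat signals were set to the floor. No difference from the chemostat could be negative there. With a floor of 32 its log2 differences from the chemostat on days 2, 9, 16 and 20 were 0.048, 1.0, 2.31 and 3.34. With log2(signal + 16) they were 1.49, 2.62 and 3.57 on days 9, 16 and 20, and 3.03 between day 20 and day 2. Averaged probe sets gave 2.86 on day 16 and 3.98 on day 20. The middle TKL2 probe set gave 0.43, 1.62, 2.80 and 3.54, and 3.11 against day 2, and the dimmest, floored in the chemostat, 0.081, 1.61, 2.12 and 3.72. Without the 3 high-ratio arrays the day 16 value was 2.91. Leaving out 1 array gave 0.54 to 1.43, 2.02 to 2.66, 2.91 to 4.38 and 4.57 to 4.79 on the 4 days and 3.25 to 4.13 against day 2. The late ratio of TKL2 to TKL1 was 3.37 and 3.69 above the chemostat with the floor of 32 and with log2(signal + 16), and 4.35 to 5.05 with 1 array left out; the ranges were 1.79 to 2.17 for SOL4 over SOL3, -0.14 to 0.49 for GND2 over GND1 and 1.42 to 1.76 for NQM1 over TAL1.

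Counts of the 9 other genes were 1 to 5 on day 9, 0 to 4 on day 16, 0 to 2 on day 20 and 0 to 4 by the F test with 1 array left out, and 0 for day 2 and for day 20 against day 2. Without the 3 high-ratio arrays each late day keeps 1 array, so that counts from that fit rest on the spread of the chemostat and day 2 arrays. Day 20 had 2 under median scaling, against 8.84% of all genes, and 3 with only the compared groups in the fit. The share of all genes was not computed for the latter fit. It was also not computed with 1 array left out, with the replicate number as a block, or for the F test in any fit but the main one. Those counts cannot be set against a background. With the replicate number as a block the F test called 1 gene, TKL1. In that fit SOL3 missed the threshold on day 9 (limma adjusted p = 0.0567), and between day 20 and day 2, the comparison whose numbers mark shared cultures, the count stayed at 0. Replicate numbers of the chemostat do not pair with the retentostat. Median scaling left 326 of 610 calls over all genes higher on day 9, 334 of 744 on day 16 and 181 of 493 on day 20, against 637 of 842, 926 of 1167 and 585 of 753 as deposited; quantile scaling left 378 of 607, 442 of 735 and 245 of 460. Signals near the floor limit RKI1 and the chemostat level of TKL2.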
